A study of Homo sapiens with 90 samples.

Results

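Fenbuconazole is a triazole fungicide, and the comparison described here set HepaRG cells exposed to its highest concentration, 10 µM, against vehicle controls. HepaRG is an established human liver cell line that differentiates into hepatocyte-like and biliary-like cells. Cells in multi-well plates received 10 µM fenbuconazole in 0.2% dimethyl sulfoxide (DMSO) for 24 h (3 cultures), or 0.2% DMSO alone for 24 h (3 cultures). Each replicate was a separate experiment with its own batch of cells, so the 10 µM and DMSO cultures of 1 replicate were compared as a pair. These 6 arrays belong to a set of 30 arrays, 9 fenbuconazole concentrations and DMSO in triplicate, among 90 columns in the whole series. Each RNA was measured on 1 Affymetrix HT HG-U133+ PM array, and levels are given as log2 values from the authors' robust multi-array averaging (RMA), so that a difference of 1 means 2 times the signal. All 54613 probe sets other than controls were tested, and 19774 genes were each represented by 1 probe set.

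Azole fungicides act on fungi by binding the heme iron of lanosterol demethylase, the P450 enzyme of sterol synthesis whose human form is CYP51A1. In liver cells, enzymes that clear foreign chemicals are induced through receptors that sense the chemicals, chiefly the pregnane X receptor (PXR) and the constitutive androstane receptor (CAR) for the CYP3A and CYP2B families, and the aryl hydrocarbon receptor (AHR) for the CYP1 family. Sterol synthesis genes are under the transcription factor SREBP2, which is released from the endoplasmic reticulum when membrane sterol is low, and fatty acid synthesis genes are under its relative SREBP1.

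At a false discovery rate of 0.05, 87 genes (0.44% of the genes) were higher in the 10 µM cultures than in the DMSO cultures, and 43 genes (0.217%) were lower. Those genes are named as called below, from limma's moderated test with the replicate as a block. Of the 66 named genes, 40 have other probe sets, and in 23 of these at least 1 of the others was not called, among them 14 where it lay above the array medians in the DMSO cultures. An uncalled probe set had the opposite sign in 5 genes, CYP3A7, GLYATL1, PGD, PRUNE2 and ZSCAN25. The probe sets used for 9 genes, CYP1A2, CYP3A4, CYP3A7, CYP3A43, CYP4A11, CYP4A22, DCN, H19 and KMO, belong to a class that can also bind related transcripts. For all genes the groups did not overlap, with the 10 µM cultures higher, in 1058 cases (5.35%), and with the 10 µM cultures lower in 1115 (5.64%). The median log2 fold change over all genes was 0.00034 and its SD across genes was 0.17, and 31 genes moved by more than 1 on the log2 scale. Array medians lay between 2.83 and 2.93 and correlations between the 6 arrays between 0.989 and 0.993.

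Among the genes called lower, the 10 µM culture of replicate 2 stood apart from the other 2. Of the 43 genes called lower, 36 had their lowest 10 µM value in it and 38 had their largest paired difference in replicate 2, and the median paired differences of these genes were -0.56, -0.80 and -0.41 in replicates 1, 2 and 3. Of the 87 genes called higher, 30, 44 and 13 had their largest paired difference in replicates 1, 2 and 3, with medians of 0.76, 0.79 and 0.65. Their highest 10 µM value was in replicate 1 for 40 genes, in replicate 2 for 36 and in replicate 3 for 11. Without the pair of replicate 2 the counts were 39 genes higher and 5 lower, and without its 10 µM array alone they were 63 and 14. Counts also shrank to 40 and 9 without replicate 1 and to 50 and 18 without replicate 3, so any pair left out took calls away. In all, 33 of the 87 calls for higher genes and 3 of the 43 for lower genes were kept whichever replicate was left out, those 3 being H19, TM6SF2 and CYP4A11.

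**Figure D1:**
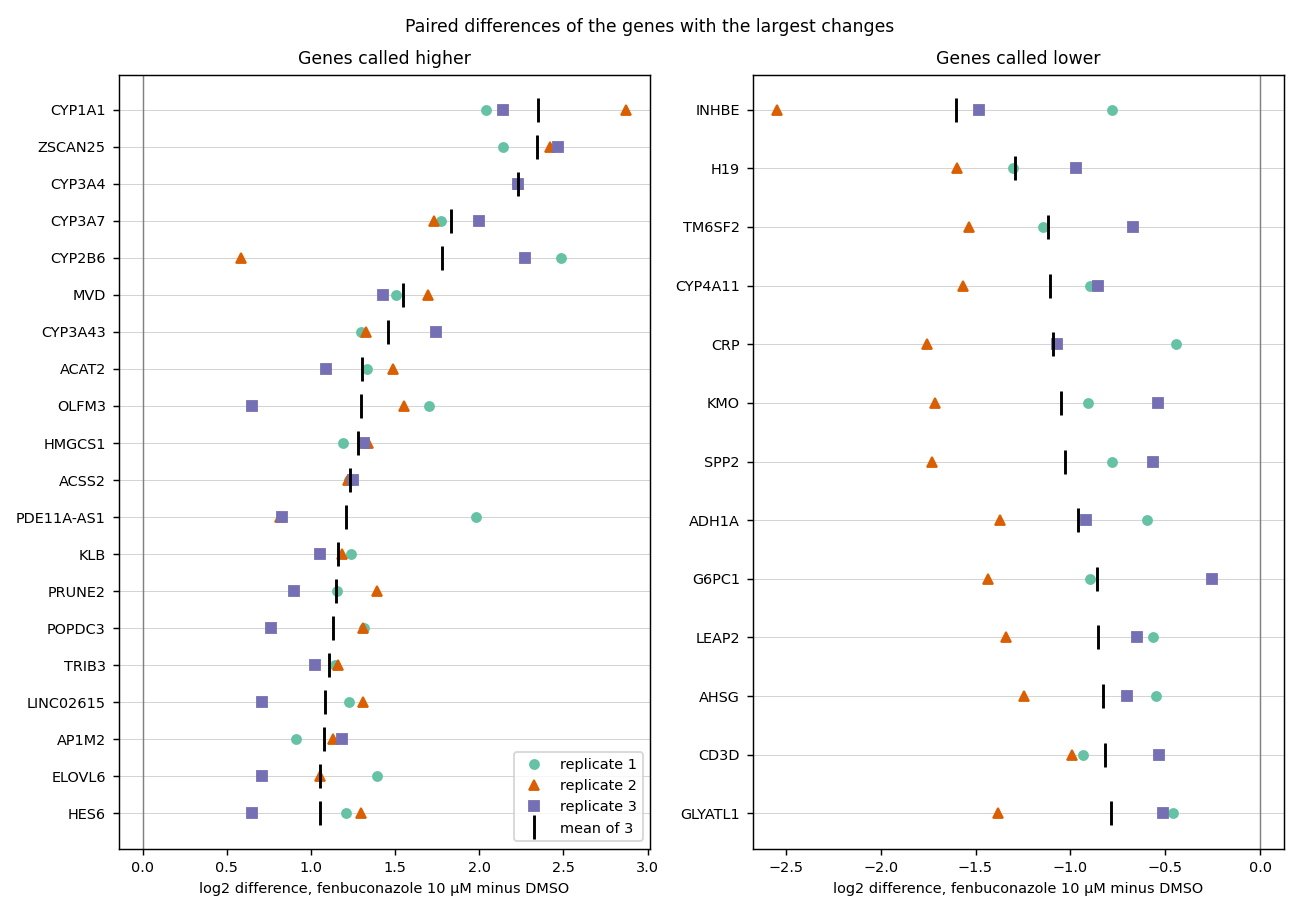
Paired log2 differences, 10 µM minus DMSO, for the genes with the largest changes; each symbol is 1 replicate and the vertical tick is the mean of 3. Replicate 2 (triangles) lies farthest from 0 for all 13 genes of the right panel, while in the left panel CYP2B6 has its smallest difference, 0.59, in that replicate.

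The first steps of cholesterol synthesis, from acetyl-CoA to the isoprenoid units of squalene, rose as a group, with 6 of 8 measured members of the mevalonate list called higher, 0 lower, and a median log2 fold change of 0.91. MVD, the decarboxylase that makes isopentenyl diphosphate, had levels of 7.13, 7.15 and 6.88 in the 10 µM cultures, against 5.62, 5.45 and 5.45 in the DMSO cultures, replicates 1, 2 and 3 in order (log2 fold change 1.54, SE 0.12, adjusted p = 1.52e-08). All 3 treated cultures lay far above all 3 controls, a 2.92-fold difference. ACAT2, the cytosolic thiolase that joins acetyl-CoA units, had 10.19, 10.03 and 9.93 in the 10 µM cultures, against 8.86, 8.54 and 8.85 in the DMSO cultures (log2 fold change 1.30, SE 0.11, adjusted p = 1.84e-08). HMGCS1, the synthase that makes HMG-CoA, had 11.35, 11.37 and 11.15 in the 10 µM cultures, against 10.16, 10.03 and 9.84 in the DMSO cultures (log2 fold change 1.28, SE 0.09, adjusted p = 1.03e-09). In both genes the spread within a group was a small part of the gap between the groups. IDI1, the isomerase of isopentenyl diphosphate, rose by 0.92 (SE 0.095, adjusted p = 1.06e-06) and FDPS, farnesyl diphosphate synthase, by 0.90 (SE 0.087, adjusted p = 3.76e-07). MVK, mevalonate kinase, rose by 0.69 (adjusted p = 0.00625), a call lost without replicate 1, 2 or 3 in turn (adjusted p = 0.224, 0.0919 and 0.0831). The other members, PMVK at 0.049 and GGPS1, which leads away from sterols to geranylgeranyl diphosphate, at 0.04, were not called.

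From squalene to cholesterol, 9 of 11 measured members were called higher and 0 lower, with a median of 0.82. LSS, lanosterol synthase, had 9.93, 10.01 and 9.74 in the 10 µM cultures, against 8.87, 8.80 and 8.72 in the DMSO cultures (log2 fold change 1.09, SE 0.084, adjusted p = 6.11e-09). DHCR7, the reductase of the last step, had 10.44, 10.48 and 10.28 in the 10 µM cultures, against 9.48, 9.41 and 9.33 in the DMSO cultures (log2 fold change 0.99, SE 0.084, adjusted p = 3.21e-08). CYP51A1, the human form of the enzyme that the fungicide binds in fungi, had 11.63, 11.65 and 11.39 in the 10 µM cultures, against 10.82, 10.75 and 10.64 in the DMSO cultures (log2 fold change 0.82, SE 0.084, adjusted p = 7.92e-07). The groups of all 3 genes were separate. TM7SF2, a sterol reductase, rose by 0.95 (adjusted p = 7.8e-08), SQLE, squalene epoxidase, by 0.83 (adjusted p = 2.64e-07), HSD17B7, a sterol ketoreductase, by 0.85 (adjusted p = 6.02e-06) and EBP, a sterol isomerase, by 0.75 (adjusted p = 6.63e-07). NSDHL, which removes a carboxyl group from the sterol ring, rose by 0.65 and SC5D, a sterol desaturase, by 0.56. The NSDHL call was lost without replicate 1 (adjusted p = 0.2) and without replicate 3 (adjusted p = 0.0663), and the SC5D call without replicate 1 (adjusted p = 0.348) and without replicate 2 (adjusted p = 0.268). MSMO1 (0.39) and LBR (0.21) were not called. ERG28, the human counterpart of a yeast scaffold of sterol synthesis and named here after its values were seen, rose by 0.91 (adjusted p = 3.7e-06).

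Sterol sensing, uptake and export was a mixed list, with 3 of 19 measured members higher, 2 lower and a median of 0.081. TMEM97, a membrane protein that binds the cholesterol exporter NPC1 and is itself an SREBP target, had 11.40, 11.57 and 11.45 in the 10 µM cultures, against 10.21, 10.34 and 10.28 in the DMSO cultures (log2 fold change 1.20, SE 0.096, adjusted p = 1.36e-08). The 3 paired differences, 1.19, 1.23 and 1.18, were nearly the same. STARD4, a soluble sterol carrier, rose by 0.90 (adjusted p = 3.87e-06), and INSIG1, which holds SREBP in the endoplasmic reticulum, by 0.79 (adjusted p = 3.39e-06). The members that fell were the partner transporters of sterol excretion into bile. ABCG5 had 5.18, 4.99 and 5.62 in the 10 µM cultures, against 5.80, 6.04 and 6.34 in the DMSO cultures (log2 fold change -0.80, SE 0.12, adjusted p = 0.000358), without overlap. ABCG8, named after its values were seen, fell by 0.51 (adjusted p = 0.0159). Without replicate 2 the adjusted p of ABCG5 was 0.144 and that of ABCG8 0.855, and without replicates 1 and 3 the ABCG8 call was lost too (adjusted p = 0.213 and 0.0748). Over these 3 lists, 18 genes were called higher, by 0.56 to 1.54, and 15 of them were kept whichever replicate was left out.

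Because the sterol genes moved together, the letters of their promoters were examined, in RefSeq windows of GRCh38.p14 that run from 250 bases before to 50 after each gene start. The CCAAT box, the core bound by the factor NF-Y, was searched as CCAAT on both strands. It was present in 17 of 21 windows (81.0%) of the sterol list members called higher, in 53.8% of 80 windows of the other genes called higher, in 37.0% of 46 windows of genes called lower, and in 34.6% of all 35116 windows. The HMGCS1 and TMEM97 windows are shown as examples of genes near the top of the sterol response with more than 1 match. HMGCS1 lies at chr5:43313363-43313662, minus strand, and TMEM97 at chr17:28318950-28319249, plus strand, with the box in capitals, read as ATTGG where it lies on the opposite strand.
HMGCS1 promoter: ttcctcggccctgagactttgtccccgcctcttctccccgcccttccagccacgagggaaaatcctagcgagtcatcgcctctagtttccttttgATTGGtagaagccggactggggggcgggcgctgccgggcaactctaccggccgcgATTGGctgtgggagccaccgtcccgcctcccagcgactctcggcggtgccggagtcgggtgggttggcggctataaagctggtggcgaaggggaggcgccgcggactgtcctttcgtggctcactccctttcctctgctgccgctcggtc
TMEM97 promoter: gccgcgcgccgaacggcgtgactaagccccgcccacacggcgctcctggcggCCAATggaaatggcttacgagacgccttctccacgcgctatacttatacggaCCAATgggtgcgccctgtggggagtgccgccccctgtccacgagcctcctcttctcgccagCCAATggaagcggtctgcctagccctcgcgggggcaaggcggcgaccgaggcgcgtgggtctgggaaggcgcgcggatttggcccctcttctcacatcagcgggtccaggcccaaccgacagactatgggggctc
In HMGCS1 the 2 matches began 155 and 100 bases before the gene start, and in TMEM97 the 3 matches began 198, 146 and 85 bases before it. The form TCACNCCAC of the sterol regulatory element, again on both strands, was in 0 of the 101 windows of genes called higher and in 1.13% of all windows, which says only that these letters are not in these windows. Other motifs were searched in the same way. The xenobiotic response element, as TNGCGTG, was in 5 of the 21 sterol windows (23.8%) and in 5.51% of all windows. The C/EBP-ATF element, as TGATGNAA, was in 0 of the 21 sterol windows and in 3.62% of all windows. So CCAAT was not the only motif with a higher share in the sterol windows. A match is a description of the sequence and not a site of binding, and some genes have more than 1 window.

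Fatty acid synthesis followed with 6 of 19 measured members higher, 0 lower and a median of 0.30. ACSS2, the cytosolic synthetase of acetyl-CoA, had 9.42, 9.41 and 9.15 in the 10 µM cultures, against 8.20, 8.19 and 7.90 in the DMSO cultures (log2 fold change 1.23, SE 0.10, adjusted p = 2.71e-08). Its paired differences, 1.23, 1.22 and 1.25, were almost equal. ELOVL6, an elongase of saturated fatty acids, had 9.62, 9.36 and 9.16 in the 10 µM cultures, against 8.23, 8.30 and 8.45 in the DMSO cultures (log2 fold change 1.05, SE 0.11, adjusted p = 6.54e-07), with the smallest difference in replicate 3. ACLY, ATP citrate lyase, rose by 0.80 (adjusted p = 1.42e-06). FASN, fatty acid synthase, averaged 7.91 ± 0.16 in the 10 µM cultures, against 7.18 ± 0.16 in the DMSO cultures (SD, n = 3 each, adjusted p = 0.00251), and its call was lost without replicate 1 (adjusted p = 0.0531) and replicate 2 (adjusted p = 0.45). THRSP, a regulator of lipogenesis, rose by 0.67 and FADS1, a desaturase, by 0.41. Both of those calls were lost without replicate 1 (adjusted p = 0.571 for THRSP and 0.404 for FADS1) and replicate 3 (adjusted p = 0.268 and 0.242), and that of FADS1 without replicate 2 too (adjusted p = 0.81). The desaturase FADS2, at -0.59, and SCD, at 0.32, were not called, nor was SREBF1, the gene of SREBP1, at 0.10. LPIN1, a phosphatidate phosphatase of triglyceride synthesis and also an SREBP target, had 8.77, 8.98 and 8.96 in the 10 µM cultures, against 8.001, 8.25 and 8.20 in the DMSO cultures (log2 fold change 0.75, SE 0.094, adjusted p = 2.19e-05), without overlap.

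Of 14 measured CYP2 and CYP3 genes of drug metabolism, 5 were called higher and 1 lower, and the largest changes in that list were those of the CYP3A and CYP2B families. CYP3A4, the P450 that clears more drugs in the liver than any other, had 12.24, 11.93 and 12.11 in the 10 µM cultures, against 10.02, 9.70 and 9.88 in the DMSO cultures (log2 fold change 2.23, SE 0.10, adjusted p = 1.74e-13). The 3 paired differences, 2.22, 2.23 and 2.23, were nearly identical, a 4.68-fold rise. CYP3A7, the fetal liver form, had 11.17, 11.20 and 11.46 in the 10 µM cultures, against 9.39, 9.47 and 9.46 in the DMSO cultures (log2 fold change 1.83, SE 0.12, adjusted p = 1.39e-10). CYP3A43, a minor member, had 5.37, 4.75 and 5.63 in the 10 µM cultures, against 4.07, 3.42 and 3.89 in the DMSO cultures (log2 fold change 1.46, SE 0.23, adjusted p = 0.00101), and its call was lost without replicate 3 (adjusted p = 0.0672). CYP3A5, the other adult form, rose by 0.53 (adjusted p = 0.0036), and this call was lost without any 1 of the replicates (adjusted p = 0.36, 0.206 and 0.0524). The representative probe sets of CYP3A4, CYP3A7 and CYP3A43 can also bind transcripts of close relatives, and how far each gene contributed to its probe set was not tested. Outside that class, 1 probe set of CYP3A7 rose by 1.16 (adjusted p = 3.76e-07), and another, near the array medians, gave -0.11 and was not called (adjusted p = 0.923). The other CYP3A4 probe sets of the class rose by 2.41 (adjusted p = 4.66e-13) and 2.88 (adjusted p = 6.88e-14). The only CYP3A4 probe set outside the class, below the array medians, gave 0.10 and was not called (adjusted p = 0.926). All 4 CYP3A43 probe sets belong to that class.

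CYP2B6, the main CAR target among the P450 genes, had 6.94, 5.21 and 6.81 in the 10 µM cultures, against 4.46, 4.62 and 4.54 in the DMSO cultures (log2 fold change 1.78, SE 0.23, adjusted p = 4.77e-05). Replicate 2 gave a difference of only 0.59, against 2.49 and 2.27 in replicates 1 and 3, so that the call was lost without replicate 1 (adjusted p = 0.0896) and without replicate 3 (adjusted p = 0.0576). Without the 10 µM array of replicate 2 the log2 fold change was 2.32 (adjusted p = 3.04e-11). CYP2E1, the ethanol-metabolizing P450, went the other way with 9.53, 9.26 and 9.55 in the 10 µM cultures, against 10.15, 9.95 and 10.09 in the DMSO cultures (log2 fold change -0.62, SE 0.098, adjusted p = 0.000832). Its groups were separate, and its call was lost without replicate 1 (adjusted p = 0.166) and without replicate 2 (adjusted p = 0.138). CYP2C8 (0.29), CYP2D6 (0.16), CYP2A6 (0.088) and CYP2J2 (-0.15) were not called.

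**Figure D2:**
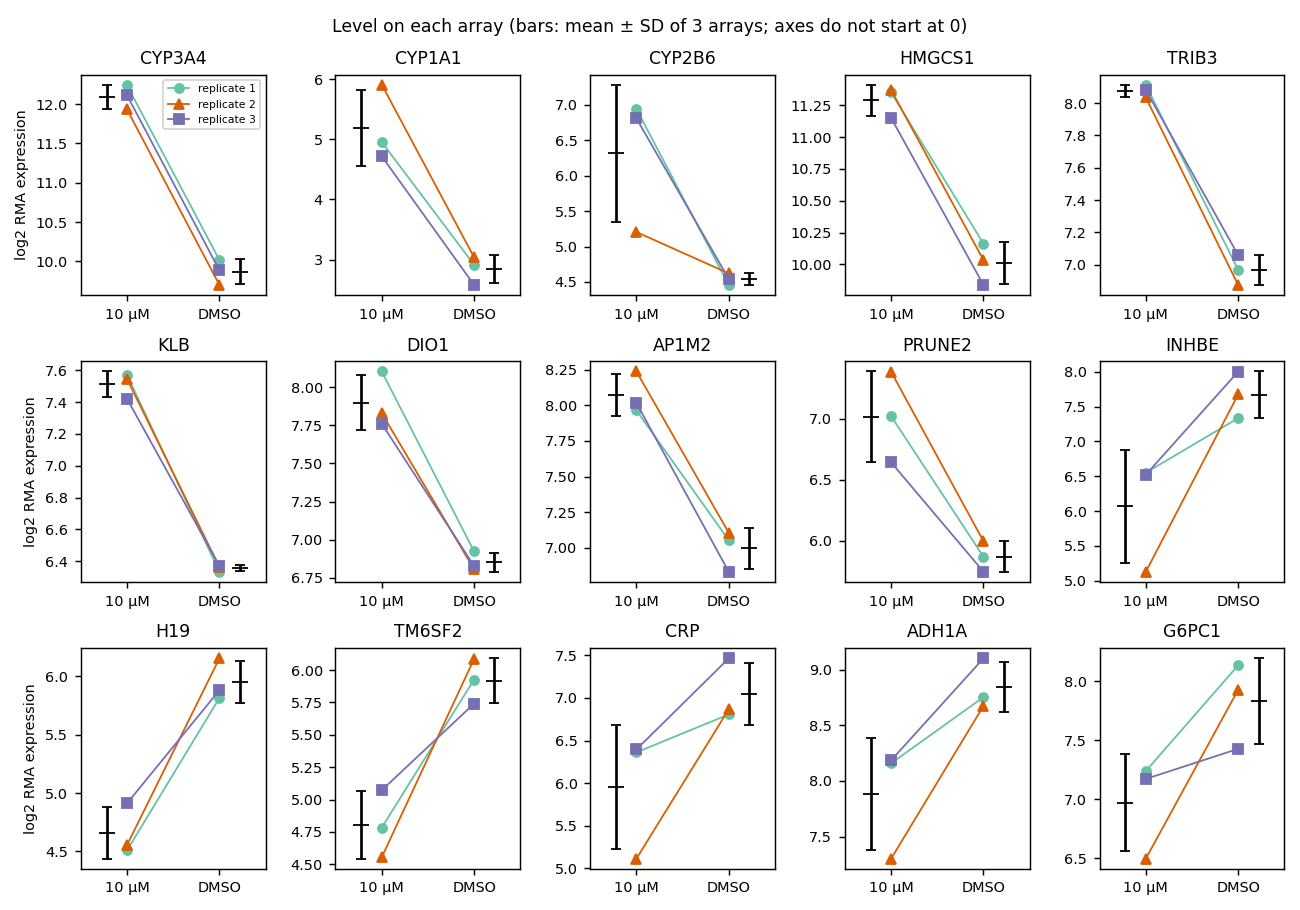
Level of 15 genes on each array (log2 RMA expression, axes not starting at 0), with the 10 µM cultures left and the DMSO cultures right; lines join the arrays of a replicate and black bars give the mean ± SD of 3. CYP3A4, HMGCS1, TRIB3 and KLB show near-parallel lines, whereas INHBE, CRP and CYP2B6 have a replicate 2 culture at 10 µM (5.13, 5.11 and 5.21) that lies below the other 2.

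The promoter windows of CYP3A4 and CYP3A5 are shown because a known PXR element lies in that of CYP3A4 and the same letters are in that of CYP3A5. The everted repeat with 6 spacer bases, searched on both strands as TGAACT and AGGTCA with 6 bases of any kind between them, occurred in 3 of 35116 windows (0.00854%), among them CYP3A4 (chr7:99784135-99784434, minus strand) and CYP3A5 (chr7:99679947-99680246, minus strand), both in GRCh38.p14, with the repeat and its spacer in capitals.
CYP3A4 promoter: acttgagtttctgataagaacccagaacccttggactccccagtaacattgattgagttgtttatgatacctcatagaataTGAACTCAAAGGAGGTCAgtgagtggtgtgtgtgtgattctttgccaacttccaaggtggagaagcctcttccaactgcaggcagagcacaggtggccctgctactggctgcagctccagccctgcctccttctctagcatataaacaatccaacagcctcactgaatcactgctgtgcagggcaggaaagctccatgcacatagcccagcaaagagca
CYP3A5 promoter: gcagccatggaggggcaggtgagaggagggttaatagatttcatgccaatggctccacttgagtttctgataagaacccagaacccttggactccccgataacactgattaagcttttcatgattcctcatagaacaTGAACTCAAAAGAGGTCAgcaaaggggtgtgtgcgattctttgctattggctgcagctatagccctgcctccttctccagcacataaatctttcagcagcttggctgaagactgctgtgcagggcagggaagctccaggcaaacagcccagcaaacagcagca
The match began 169 bases before the gene start in CYP3A4 and 113 bases before it in CYP3A5. The windows of CYP3A7 and CYP3A43 hold no match, which says only that these letters are not in these windows. Variant letters and sequence outside the windows were not searched. CYP3A4 rose by 2.23 and CYP3A5 by 0.53 on the log2 scale, and CYP3A7 and CYP3A43, without a match, by 1.83 and 1.46. The values of CYP3A4, CYP3A7 and CYP3A43 come from probe sets that can also bind transcripts of close relatives. They may therefore not be separate changes of each gene.

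ZSCAN25, a zinc finger gene, had 8.71, 8.71 and 8.95 in the 10 µM cultures, against 6.57, 6.29 and 6.48 in the DMSO cultures (log2 fold change 2.34, SE 0.12, adjusted p = 2.99e-12), and neighbours CYP3A5 in the GRCh38.p14 gene table. Only 1 of its 3 probe sets moved, and the other 2 gave -0.16 and -0.051, neither called. The genes on its other side in that table, TMEM225B (0.19), ZNF655 (0.088) and FAM200A (0.016), were not called, and neither was TRIM4 (0.026) beyond CYP3A43. Whether the responding probe set reads ZSCAN25 or a transcript of the CYP3A side was not tested.

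Among CYP1 genes and AHR targets, 2 of 10 measured members were called higher and 0 lower. CYP1A1, the most inducible AHR target, had 4.95, 5.91 and 4.72 in the 10 µM cultures, against 2.91, 3.04 and 2.58 in the DMSO cultures (log2 fold change 2.35, SE 0.16, adjusted p = 7.93e-10). It rose in all 3 replicates. Its DMSO levels lay near the array medians and the deposited values carry no call of which probe sets are above background, so the 2.35 is a difference of array values and no fold is given for it. CYP1A2, its neighbour and the constitutive hepatic form, had 5.71, 5.66 and 4.91 in the 10 µM cultures, against 4.26, 4.04 and 4.37 in the DMSO cultures (log2 fold change 1.20, SE 0.21, adjusted p = 0.00352). Its probe set is of the class that can bind related transcripts, and the other CYP1A2 probe set, near the array medians in the DMSO cultures, gave 0.27 and was not called (adjusted p = 0.807). Replicate 3 gave only 0.53, and the call was lost without replicate 1 (adjusted p = 0.259) and without replicate 2 (adjusted p = 0.28). The other members included CYP1B1 at 0.26, NQO1 at 0.41, TIPARP at 0.039, AHRR at -0.082 and ALDH3A1 at 0.049, none called.

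Of the CAR and PXR targets other than P450 genes, 5 of 19 measured members were called higher and 0 lower, with a median of 0.25. The largest change of this list, 1.11, was that of TRIB3, which is also counted in the integrated stress list below. ABCB1, the efflux pump P-glycoprotein, had 9.01, 9.11 and 8.77 in the 10 µM cultures, against 8.38, 8.32 and 8.11 in the DMSO cultures (log2 fold change 0.69, SE 0.086, adjusted p = 2.19e-05), without overlap. It was also the only 1 of 17 measured drug transporters to be called. AKR1B10, an aldo-keto reductase, rose by 0.41 (adjusted p = 0.00857). PGD, a dehydrogenase of the pentose phosphate pathway that is not in the CAR and PXR list, rose by 0.50 (adjusted p = 0.0106). AKR1B10 and PGD were the 2 called among 20 measured NRF2 targets, of which 18 had a positive value. Both were lost without replicate 1 (adjusted p = 0.276 for AKR1B10 and 0.167 for PGD), replicate 2 (0.684 and 0.609) and replicate 3 (0.137 and 0.131). In the heme list 2 of 17 measured members were higher. FLVCR1, a heme and choline transporter, had 6.74, 6.97 and 6.63 in the 10 µM cultures, against 5.69, 5.90 and 6.16 in the DMSO cultures (log2 fold change 0.87, SE 0.11, adjusted p = 3.09e-05), and its call was lost without replicate 1 (adjusted p = 0.0531). ALAS1, the rate-limiting enzyme of heme synthesis in liver, averaged 8.35 ± 0.08 in the 10 µM cultures, against 7.96 ± 0.13 in the DMSO cultures (SD, n = 3 each, adjusted p = 0.00989). The ALAS1 call was lost without the pairing (adjusted p = 0.0646) and without replicates 1, 2 and 3 in turn (adjusted p = 0.256, 0.491 and 0.261). POR, the electron donor of P450 enzymes, was at 0.39 and not called.

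The integrated stress and amino acid response, driven by the factor ATF4, had 5 of 25 measured members higher, 0 lower and 20 with a positive value, with a median of 0.21. TRIB3, a pseudokinase that is an ATF4 target, had 8.11, 8.03 and 8.08 in the 10 µM cultures, against 6.97, 6.88 and 7.06 in the DMSO cultures (log2 fold change 1.11, SE 0.084, adjusted p = 4.53e-09). It had the smallest SD among treated cultures of the named genes, 0.039, and its call was kept whichever replicate was left out. SLC7A11, the cystine and glutamate exchanger, had 6.85, 6.89 and 6.40 in the 10 µM cultures, against 5.87, 5.91 and 5.82 in the DMSO cultures (log2 fold change 0.85, SE 0.10, adjusted p = 1.08e-05), again kept whichever replicate was left out. PHGDH and PSAT1, enzymes of serine synthesis, rose by 0.56 (adjusted p = 0.0284) and 0.54 (adjusted p = 0.0473), and ATF4 itself by 0.35 (adjusted p = 0.0365). PHGDH moved by 0.12 in replicate 1, and its call was lost without replicate 2 (adjusted p = 0.814) and without replicate 3 (adjusted p = 0.453). The calls of PSAT1 and ATF4 were lost without replicate 1 (adjusted p = 0.524 and 0.336), replicate 2 (0.846 and 0.94) and replicate 3 (0.0652 and 0.291), and that of ATF4 also without the pairing (adjusted p = 0.271). The other ATF4 targets ASNS (0.43), ATF3 (0.39), DDIT3 (0.091) and CHAC1 (0.14) were not called. None of 14 measured chaperones of the unfolded protein response was called, and 13 had a negative value, HSPA5 among them at -0.11.

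**Figure D3:**
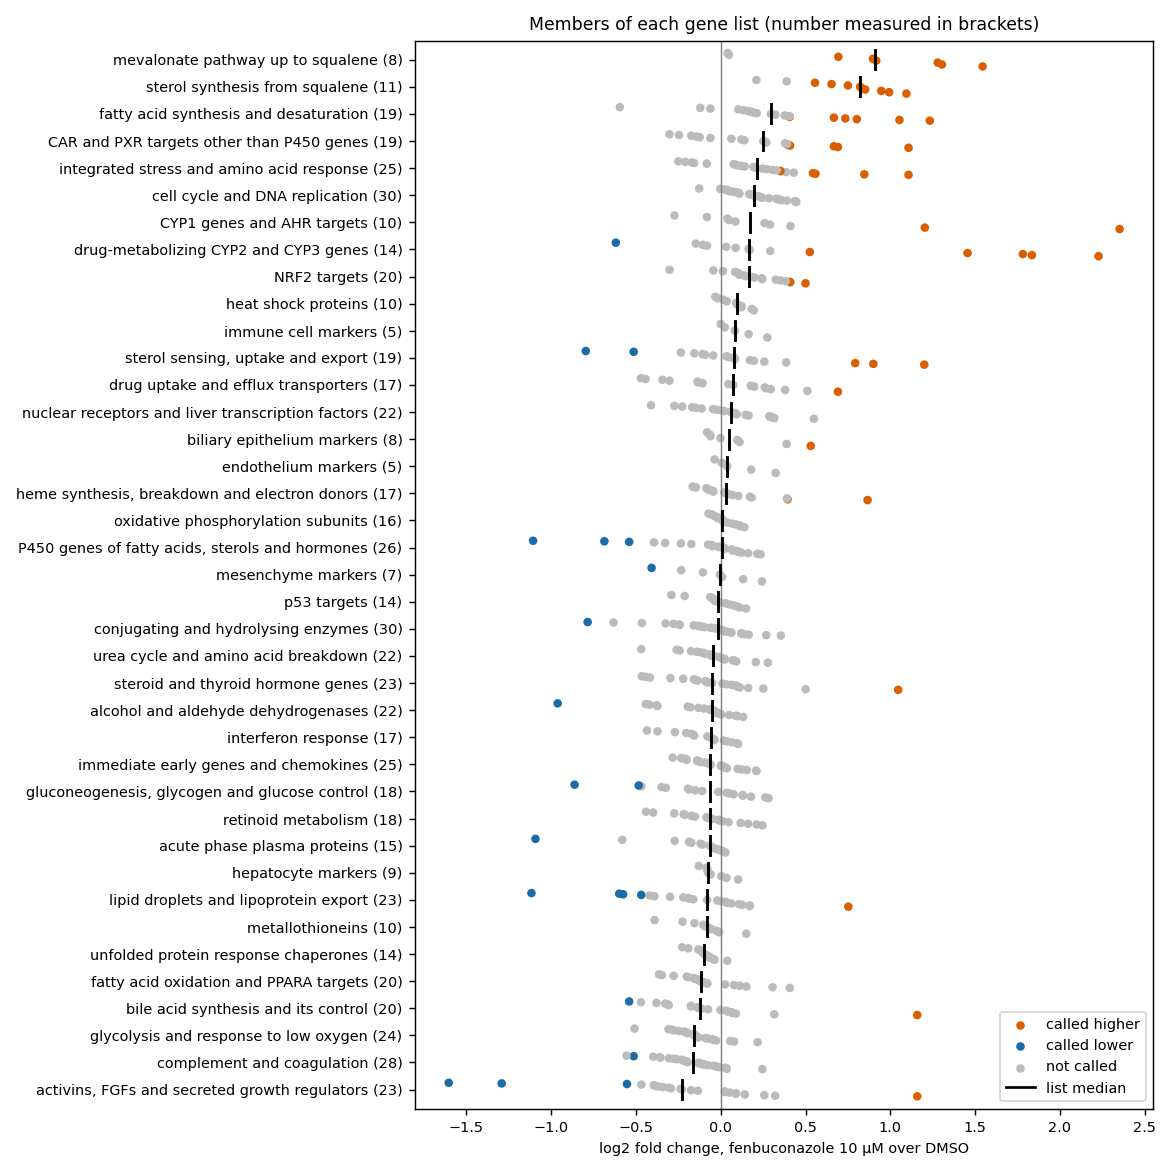
Log2 fold change, 10 µM over DMSO, of the measured members of each gene list, ordered by list median (black tick), with the number measured in brackets; orange points were called higher, blue points lower and grey points not called. The 2 sterol synthesis lists stand at the top with medians of 0.91 and 0.82, and no other list has a median above 0.30.

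Outside the P450 and sterol genes, several risers had no shared role. KLB, the co-receptor through which liver cells sense FGF19 and FGF21, had 7.57, 7.55 and 7.42 in the 10 µM cultures, against 6.33, 6.36 and 6.37 in the DMSO cultures (log2 fold change 1.16, SE 0.11, adjusted p = 4.86e-07). The control levels were nearly equal, and every treated level was more than 1 above them. DIO1, the deiodinase that activates thyroid hormone, had 8.10, 7.83 and 7.76 in the 10 µM cultures, against 6.92, 6.80 and 6.83 in the DMSO cultures (log2 fold change 1.05, SE 0.11, adjusted p = 2.14e-06). It was the only 1 of 23 measured steroid and thyroid hormone genes to be called. AP1M2, the epithelial subunit of a clathrin adaptor that sorts proteins to the basolateral membrane, had 7.96, 8.24 and 8.02 in the 10 µM cultures, against 7.05, 7.10 and 6.83 in the DMSO cultures (log2 fold change 1.08, SE 0.12, adjusted p = 3.18e-06). PRUNE2, a large protein with a BCH domain, had 7.02, 7.39 and 6.64 in the 10 µM cultures, against 5.87, 5.99 and 5.74 in the DMSO cultures (log2 fold change 1.15, SE 0.14, adjusted p = 1.61e-05), with another probe set at 0.90 and a dim one at -0.071. HES6, a bHLH factor of the Hairy family, had 5.89, 5.71 and 5.54 in the 10 µM cultures, against 4.68, 4.42 and 4.89 in the DMSO cultures (log2 fold change 1.05, SE 0.14, adjusted p = 9.77e-05). The calls of these 5 genes were kept whichever replicate was left out.

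POPDC3, a Popeye-domain membrane protein, had 6.47, 6.21 and 5.89 in the 10 µM cultures, against 5.16, 4.90 and 5.13 in the DMSO cultures (log2 fold change 1.13, SE 0.17, adjusted p = 0.000317), and its call was lost without replicate 2 (adjusted p = 0.0647). OLFM3, an olfactomedin of nervous tissue, had 4.63, 4.21 and 3.46 in the 10 µM cultures, against 2.93, 2.65 and 2.81 in the DMSO cultures (log2 fold change 1.30, SE 0.21, adjusted p = 0.00103). Its control values lay at the level of the array medians, and the call was lost without replicate 1 (adjusted p = 0.145) and without replicate 2 (adjusted p = 0.0873). Of the long non-coding RNAs, PDE11A-AS1 had 4.30, 3.31 and 3.18 in the 10 µM cultures, against 2.32, 2.49 and 2.35 in the DMSO cultures (log2 fold change 1.21, SE 0.16, adjusted p = 4.01e-05), and LINC02615 had 4.59, 4.83 and 3.80 in the 10 µM cultures, against 3.36, 3.52 and 3.09 in the DMSO cultures (log2 fold change 1.08, SE 0.18, adjusted p = 0.00182). PDE11A-AS1 was below the array medians in all 3 controls and rose most in replicate 1. As for CYP1A1, the values of OLFM3 and PDE11A-AS1 are differences from a control level not known to be above background. The LINC02615 call was lost without replicate 1 (adjusted p = 0.223) and without replicate 2 (adjusted p = 0.0746).

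The deepest fall was that of INHBE, the activin E subunit that hepatocytes secrete. It had 6.55, 5.13 and 6.52 in the 10 µM cultures, against 7.33, 7.68 and 8.003 in the DMSO cultures (log2 fold change -1.60, SE 0.25, adjusted p = 0.00067), and the 3 treated cultures lay below the 3 controls, with paired differences of -0.78, -2.55 and -1.48. Without replicate 3 its call was lost (adjusted p = 0.0849), and without the 10 µM array of replicate 2 the change was -1.07 (adjusted p = 0.00119). H19, an imprinted long non-coding RNA of fetal liver that is transcribed next to IGF2, had 4.51, 4.55 and 4.91 in the 10 µM cultures, against 5.81, 6.15 and 5.88 in the DMSO cultures (log2 fold change -1.29, SE 0.14, adjusted p = 3.07e-06). Its call was kept whichever replicate was left out, and its second, dimmer probe set gave -0.39 and was not called (adjusted p = 0.51). IGFBP3, a carrier of insulin-like growth factors, averaged 6.87 ± 0.31 in the 10 µM cultures, against 7.42 ± 0.18 in the DMSO cultures (SD, n = 3 each, adjusted p = 0.0365). Its call was lost without the pairing (adjusted p = 0.112) and without each replicate in turn (adjusted p = 0.452, 0.228 and 0.174). In the list of activins, FGFs and secreted growth regulators, 3 of 23 measured members were lower and KLB was higher, with a median of -0.23. The related activin genes INHBA (-0.30), INHBB (-0.34) and INHBC (0.26), and FGF21 (0.055), were not called.

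In the list of lipid droplets and lipoprotein export, 4 of 23 measured members were lower and LPIN1 was higher, with a median of -0.080. TM6SF2, which loads lipid onto very-low-density lipoprotein, had 4.78, 4.55 and 5.07 in the 10 µM cultures, against 5.93, 6.09 and 5.74 in the DMSO cultures (log2 fold change -1.12, SE 0.12, adjusted p = 3.39e-06). The groups were separate, the call was kept whichever replicate was left out, and another probe set was called at -0.79 while a dim one gave -0.060. ANGPTL4, an inhibitor of lipoprotein lipase, had 6.16, 6.01 and 6.13 in the 10 µM cultures, against 6.88, 6.52 and 6.69 in the DMSO cultures (log2 fold change -0.60, SE 0.11, adjusted p = 0.00724), the only 1 of the 4 lower genes with its smallest difference in replicate 2. CIDEB, a droplet protein of hepatocytes that takes part in lipoprotein maturation, had 7.39, 7.24 and 7.62 in the 10 µM cultures, against 8.03, 7.99 and 7.96 in the DMSO cultures (log2 fold change -0.58, SE 0.10, adjusted p = 0.00373). G0S2, an inhibitor of the triglyceride lipase PNPLA2, fell by 0.47 (adjusted p = 0.017). Without replicate 1 the adjusted p of ANGPTL4, CIDEB and G0S2 was 0.261, 0.267 and 0.37, and without replicate 2 it was 0.268, 0.43 and 0.836. Without replicate 3 the calls of ANGPTL4 (adjusted p = 0.0571) and G0S2 (adjusted p = 0.0672) were lost too. PLIN2, the main droplet coat of these cells, was at -0.39, APOA5 at -0.42 and MTTP, the transfer protein that begins lipoprotein assembly, at -0.02, none called.

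Of 15 measured acute phase proteins 1 was called lower, and of 28 measured complement and coagulation genes 1. CRP, the acute phase C-reactive protein, had 6.36, 5.11 and 6.39 in the 10 µM cultures, against 6.81, 6.87 and 7.47 in the DMSO cultures (log2 fold change -1.09, SE 0.23, adjusted p = 0.0178). The treated culture of replicate 2 was far below the other 2, and the call was lost without the pairing (adjusted p = 0.179), without replicate 2 (adjusted p = 0.28) and without replicate 3 (adjusted p = 0.271). CRP was the acute phase member called, with FGB at 0.0033, HP at -0.049 and CP at -0.58. The secreted proteins AHSG, SPP2 and LEAP2 are in neither list and are given because their falls were among the largest. AHSG, fetuin-A, had 9.99, 9.26 and 10.11 in the 10 µM cultures, against 10.54, 10.51 and 10.81 in the DMSO cultures (log2 fold change -0.83, SE 0.16, adjusted p = 0.00727). SPP2, a secreted phosphoprotein, had 6.06, 5.04 and 6.35 in the 10 µM cultures, against 6.84, 6.77 and 6.92 in the DMSO cultures (log2 fold change -1.03, SE 0.17, adjusted p = 0.00181). LEAP2, a liver peptide that blocks the ghrelin receptor, had 9.69, 9.10 and 9.81 in the 10 µM cultures, against 10.26, 10.44 and 10.47 in the DMSO cultures (log2 fold change -0.85, SE 0.13, adjusted p = 0.000317). In each of these genes the lowest value was the 10 µM culture of replicate 2, and the other 2 treated cultures were still below all controls. The AHSG call was lost without each replicate in turn (adjusted p = 0.0775, 0.113 and 0.131), that of SPP2 without replicate 1 (adjusted p = 0.0777) and that of LEAP2 without replicate 2 (adjusted p = 0.0873). C8B, a subunit of the complement attack complex, fell by 0.51 (adjusted p = 0.0255, and 0.133 without the pairing), as the complement and coagulation member called, in a list where 24 members had a negative value and the median was -0.16. The C8B call was lost without each replicate (adjusted p = 0.18, 0.868 and 0.17).

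Among 26 measured P450 genes of fatty acids, sterols and hormones, 3 were called lower and 0 higher. CYP4A11, a hydroxylase of fatty acids and a PPARA target, had 5.92, 5.16 and 5.87 in the 10 µM cultures, against 6.82, 6.72 and 6.72 in the DMSO cultures (log2 fold change -1.11, SE 0.14, adjusted p = 1.86e-05), and its close relative CYP4A22 fell by 0.69 (adjusted p = 0.0109). Both probe sets are of the class that can bind related transcripts, so the 2 falls may not be separate, and the other CYP4A11 probe sets gave -0.69 (adjusted p = 0.0859) and, near the array medians, -0.30 (adjusted p = 0.602), neither called. CYP8B1, which sets the share of cholic acid in bile, fell by 0.54 (adjusted p = 0.0433, and 0.139 without the pairing). The CYP4A22 and CYP8B1 calls were lost without each replicate, with adjusted p values of 0.167, 0.491 and 0.068 for CYP4A22 and 0.307, 1 and 0.0849 for CYP8B1. CYP7A1, the rate-limiting enzyme of bile acid synthesis, was at -0.33 and not called. No member of 20 measured genes of fatty acid oxidation and PPARA targets was called.

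ADH1A, a class I alcohol dehydrogenase, had 8.16, 7.30 and 8.18 in the 10 µM cultures, against 8.75, 8.67 and 9.10 in the DMSO cultures (log2 fold change -0.96, SE 0.17, adjusted p = 0.00268), the only 1 of 22 measured alcohol and aldehyde dehydrogenases to be called. G6PC1, the glucose-releasing phosphatase of gluconeogenesis, had 7.24, 6.49 and 7.17 in the 10 µM cultures, against 8.13, 7.93 and 7.43 in the DMSO cultures (log2 fold change -0.86, SE 0.14, adjusted p = 0.000722). Replicate 3 gave only -0.26, from the lowest of the 3 controls. SLC2A2, the hepatic glucose transporter GLUT2, had 7.75, 7.66 and 7.80 in the 10 µM cultures, against 8.17, 8.20 and 8.30 in the DMSO cultures (log2 fold change -0.48, SE 0.094, adjusted p = 0.00893). These were the 2 called among 18 measured genes of glucose control, with PCK1 at -0.19. KMO, a monooxygenase of tryptophan breakdown, had 5.76, 5.05 and 6.36 in the 10 µM cultures, against 6.67, 6.76 and 6.90 in the DMSO cultures (log2 fold change -1.05, SE 0.17, adjusted p = 0.00104). GLYATL1, an acyltransferase that conjugates glutamine, had 6.43, 5.56 and 6.66 in the 10 µM cultures, against 6.89, 6.94 and 7.18 in the DMSO cultures (log2 fold change -0.78, SE 0.15, adjusted p = 0.00735). The calls of ADH1A, G6PC1, SLC2A2, KMO and GLYATL1 were all lost without replicate 2, with adjusted p values of 0.115, 0.395, 0.462, 0.0812 and 0.431. Without replicate 1 those of G6PC1 (0.137), SLC2A2 (0.213), KMO (0.111) and GLYATL1 (0.0806) were lost, and without replicate 3 those of ADH1A (0.0874), SLC2A2 (0.137) and GLYATL1 (0.0748). The log2 fold changes without replicate 2 were -0.76 for ADH1A, -0.58 for G6PC1, -0.46 for SLC2A2, -0.72 for KMO and -0.49 for GLYATL1. TXNIP, a glucose-responsive inhibitor of thioredoxin named after its values were seen, had 7.12, 6.98 and 7.50 in the 10 µM cultures, against 7.99, 7.82 and 7.85 in the DMSO cultures (log2 fold change -0.69, SE 0.11, adjusted p = 0.000732), and its call was lost without replicate 1 (adjusted p = 0.18) and replicate 2 (adjusted p = 0.342).

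The cell type markers moved little. Of 9 measured hepatocyte markers, 0 were called, and their mean level was 11.35 to 11.52 in the 10 µM cultures and 11.49 to 11.52 in the DMSO cultures, with ALB at -0.076, APOA1 at -0.079 and SERPINA1 at -0.074. Among 8 biliary markers 1 was called, SPP1, osteopontin, which had 8.50, 8.64 and 8.49 in the 10 µM cultures, against 7.75, 8.18 and 8.11 in the DMSO cultures (log2 fold change 0.53, SE 0.097, adjusted p = 0.00437). The SPP1 call was lost without replicate 1 (adjusted p = 0.3), 2 (0.285) and 3 (0.0548), and the mean level of the list was 4.84 to 5.02 in the 10 µM cultures and 4.79 to 4.86 in the DMSO cultures, with KRT19 at 0.098 and EPCAM at -0.08. Among 7 mesenchyme markers 1 was lower, DCN, decorin, by 0.41 (adjusted p = 0.0212), a call lost without the pairing (adjusted p = 0.68) and without each replicate (adjusted p = 0.455, 0.69 and 0.132), while COL1A1 was at -0.0043. The 5 endothelial and 5 immune markers averaged between 3.15 and 3.47 on all 6 arrays, near the array medians, and 0 were called. CD3D, a subunit of the T cell receptor complex, nevertheless had 5.06, 4.99 and 5.44 in the 10 µM cultures, against 5.997, 5.98 and 5.98 in the DMSO cultures (log2 fold change -0.82, SE 0.13, adjusted p = 0.000656), lost without replicate 1 (adjusted p = 0.104) and replicate 2 (adjusted p = 0.167), while the T cell marker CD3E was at -0.00028. In such bulk samples, fewer cells of a type and less RNA per cell cannot be told apart, and the part of cell composition in these results was not tested.

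Of 30 measured genes of the cell cycle and DNA replication, 0 were called, while 28 had a positive value and the median was 0.19. MKI67, a marker of cycling cells, was at 0.45 and CDK1 at 0.36. The mean difference over the list was 0.11, 0.37 and 0.10 in replicates 1, 2 and 3, again largest in replicate 2. Outside the list and named after their values were seen, the mitotic genes ASPM (0.48), CEP55 (0.65), NCAPH (0.63) and KIF2C (0.41) were called higher. All 4 were lost without replicate 1 (adjusted p = 0.131, 0.262, 0.0531 and 0.228) and without replicate 2 (adjusted p = 1, 0.567, 0.605 and 0.874), and without replicate 3 all but CEP55 were lost (0.213 for ASPM, 0.276 for NCAPH and 0.341 for KIF2C). No member was called in the lists of heat shock (10 measured), p53 targets (14), interferon response (17), immediate early genes and chemokines (25), metallothioneins (10), oxidative phosphorylation (16), urea cycle and amino acid breakdown (22), retinoid metabolism (18), nuclear receptors and liver transcription factors (22) or glycolysis and response to low oxygen (24). In the last of these the median was -0.16.

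Genes that lie next to each other were called together in 8 pairs, in the protein-coding order of the GRCh38.p14 gene table, and both members had the same direction in all 8. How often adjacent genes share a direction over all genes was not tested. Some are families with related sequences, such as CYP1A1 and CYP1A2, and ABCG5 and ABCG8. The pairs at the CYP3A genes are ZSCAN25 with CYP3A5, CYP3A7 with CYP3A4, and CYP3A4 with CYP3A43. These rest on probe sets that can bind related transcripts, or on the ZSCAN25 probe set whose target was not tested. Others are unrelated neighbours of sterol genes. MMAB, an enzyme of cobalamin metabolism, rose by 0.60 (adjusted p = 0.000629) beside MVK, at 0.69. CETN2, a centrosome protein, rose by 0.54 (adjusted p = 0.00109) beside NSDHL, at 0.65. In both pairs the promoter windows of the partners overlap on opposite strands. RUNDC3B, the neighbour of ABCB1, rose by 0.53 (adjusted p = 0.0142). MMAB, CETN2 and RUNDC3B were named after their values were seen, and their calls were lost without each replicate in turn (adjusted p = 0.052 to 0.28).

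Over the concentrations of fenbuconazole, the response described was almost confined to 10 µM. In the same fit 0 genes were called at any concentration from 0.001 to 1 µM, and 3 higher and 0 lower at 3 µM. CYP2B6 already rose by 1.65 at 3 µM (adjusted p = 0.00627), close to its mean change at 10 µM, 1.78. Without the low 10 µM array of replicate 2, the change at 10 µM was 2.32. CYP3A4 rose by 0.66 at 3 µM (adjusted p = 0.0115) and the ZSCAN25 probe set by 0.78 (adjusted p = 0.0156). The sterol synthesis lists had medians of 0.17 before squalene and 0.18 after it at 3 µM, with 0 members called. CYP1A1 was at 0.0073, TRIB3 at 0.12, PRUNE2 at -0.018 and INHBE at 0.019 at 3 µM. TM6SF2 was at -0.57 at 3 µM (adjusted p = 0.671), the largest value below 0 there among the named genes. The same DMSO arrays serve every concentration, so these comparisons share their controls. With the 12 arrays of 0.001 to 0.03 µM as the reference in place of DMSO, 164 genes were higher (0.829%) and 215 lower (1.09%), and 122 of the 130 calls against DMSO were also made, all 66 named genes among them.

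**Figure D4:**
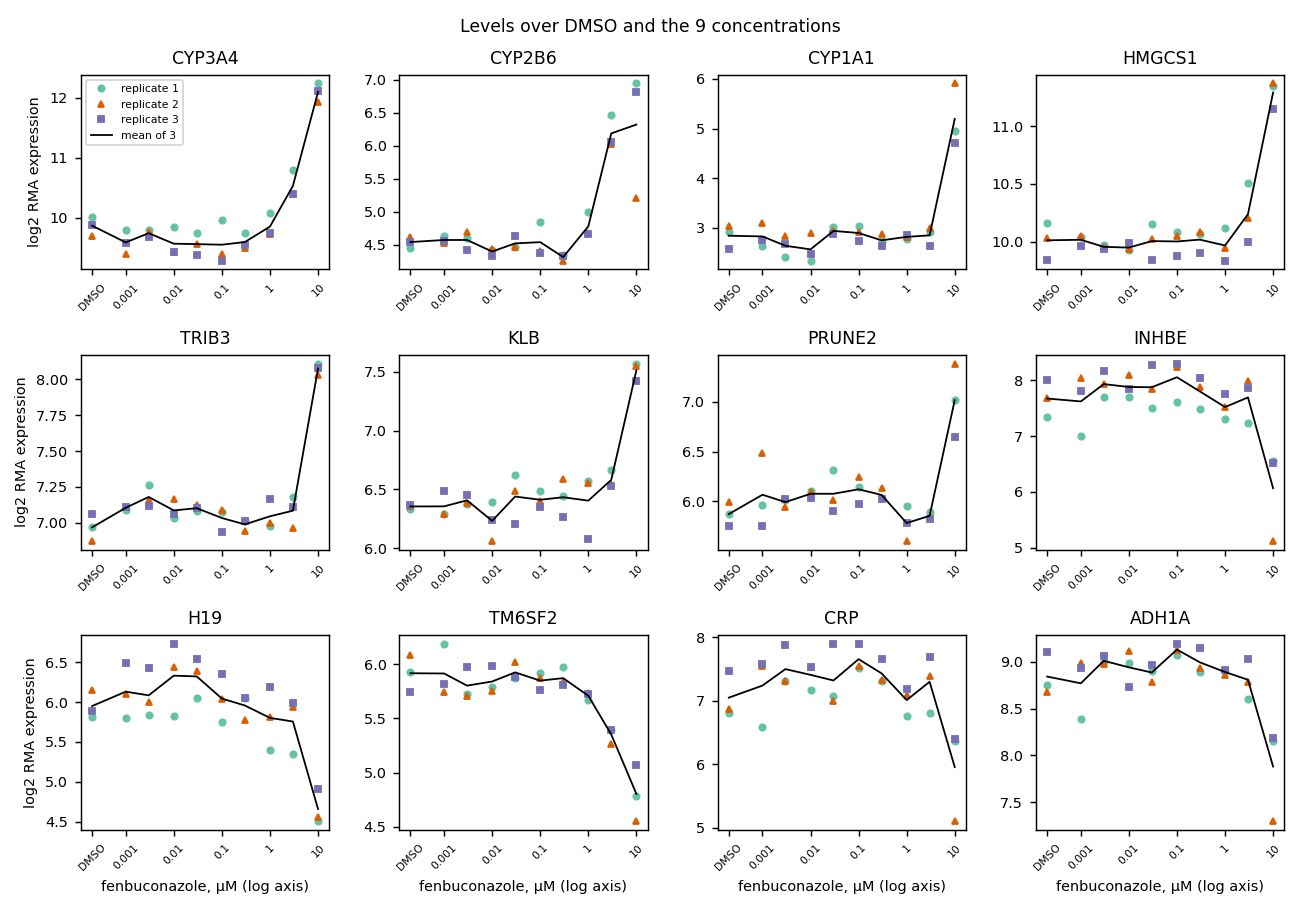
Levels of 12 genes (log2 RMA expression) in DMSO and over the 9 fenbuconazole concentrations (log axis, µM); symbols are single arrays of replicates 1, 2 and 3 and the line is the mean of 3. CYP3A4 and CYP2B6 leave the control level at 3 µM, while CYP1A1, TRIB3 and PRUNE2 do so only at 10 µM.

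Imazalil, an imidazole fungicide of the same series, was given at the same 10 µM for 24 h and was compared as the most similar condition. Both chemicals carry an azole ring, a triazole in fenbuconazole and an imidazole in imazalil, and they differ in the rest of the molecule as well. The 2 sets share the same 3 DMSO cultures but were normalized apart, so their fold changes over DMSO are not independent of each other. The difference between them was tested directly, each array first set against those DMSO arrays as normalized with its own set, and 88 of 19774 genes differed (0.445%), 51 higher and 37 lower with fenbuconazole. Of the 87 genes called higher with fenbuconazole, 42 differed from imazalil, and of the 43 called lower, 0 did.

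Fenbuconazole moved sterol and lipid synthesis genes more. Imazalil against DMSO raised some of them past the threshold too, among them ACAT2 by 0.65 (adjusted p = 0.0033). TMEM97 rose by 0.58 (adjusted p = 0.00116) and LSS by 0.46 (adjusted p = 0.00194) with imazalil. HMGCS1 and CYP51A1 were not called with imazalil (adjusted p = 0.487 and 0.38). The log2 fold change of HMGCS1 was 1.28 with fenbuconazole and 0.20 with imazalil (difference 1.08, SE 0.084, adjusted p = 1.36e-11). That of MVD was 1.54 with fenbuconazole and 0.46 with imazalil (adjusted p of the difference 7e-09), and that of CYP51A1 0.82 with fenbuconazole and 0.21 with imazalil (adjusted p 6.71e-07). Of the 18 sterol list members called higher, 15 differed from imazalil, all with fenbuconazole above it. The same held for ACSS2 (difference 0.75, adjusted p = 9.19e-07), ELOVL6 (0.78, 3.52e-06), ACLY (0.59, 3.18e-06) and LPIN1 (0.44, 0.00952). Outside lipid synthesis, TRIB3 was 1.11 with fenbuconazole and 0.31 with imazalil (adjusted p of the difference 2.48e-08), and PRUNE2 1.15 with fenbuconazole and 0.046 with imazalil (1.21e-06). FLVCR1 (0.58, 0.000711), HES6 (0.66, 0.0391), POPDC3 (0.76, 0.0178), OLFM3 (1.08, 0.00658), LINC02615 (0.86, 0.0407) and PDE11A-AS1 (1.00, 5.2e-05) were higher with fenbuconazole too, given as difference and adjusted p.

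Of the CYP1 genes and AHR targets 3 of 10 measured members were lower with fenbuconazole than with imazalil, of the CYP2 and CYP3 list 5 of 14, and of the other P450 list 0 of 26, and 0 members of these lists were higher. CYP1A1 was 2.35 with fenbuconazole and 5.41 with imazalil (difference -3.06, SE 0.22, adjusted p = 4.05e-12), and CYP1A2 1.20 with fenbuconazole and 3.57 with imazalil (adjusted p of the difference 1.33e-09). The difference for CYP2B6 was -1.55 (adjusted p = 7.2e-06), for CYP3A4 -0.47 (adjusted p = 0.0228), for CYP3A7 -0.46 (adjusted p = 0.0151), for CYP3A43 -0.75 (adjusted p = 0.203, not past the threshold), for ABCB1 -0.35 (adjusted p = 0.0355) and for ALAS1 -0.85 (adjusted p = 1.96e-10). Other genes moved by similar amounts with both chemicals, although a difference that misses the threshold does not show that they act alike. KLB was 1.16 with fenbuconazole and 1.05 with imazalil (95% interval of the difference -0.095 to 0.32), DIO1 1.05 with fenbuconazole and 1.20 with imazalil (-0.39 to 0.079), and SLC7A11 0.85 with fenbuconazole and 0.84 with imazalil (-0.19 to 0.20). INHBE was -1.60 with fenbuconazole and -1.52 with imazalil (-0.55 to 0.39), and H19 -1.29 with fenbuconazole and -1.48 with imazalil (-0.18 to 0.55). For TM6SF2 the difference was -0.52 (interval -0.81 to -0.23, adjusted p = 0.159), and for AP1M2 0.40 (interval 0.18 to 0.61, adjusted p = 0.112). Without replicates 1, 2 and 3 the count of genes that differed was 32, 33 and 43.

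**Figure D5:**
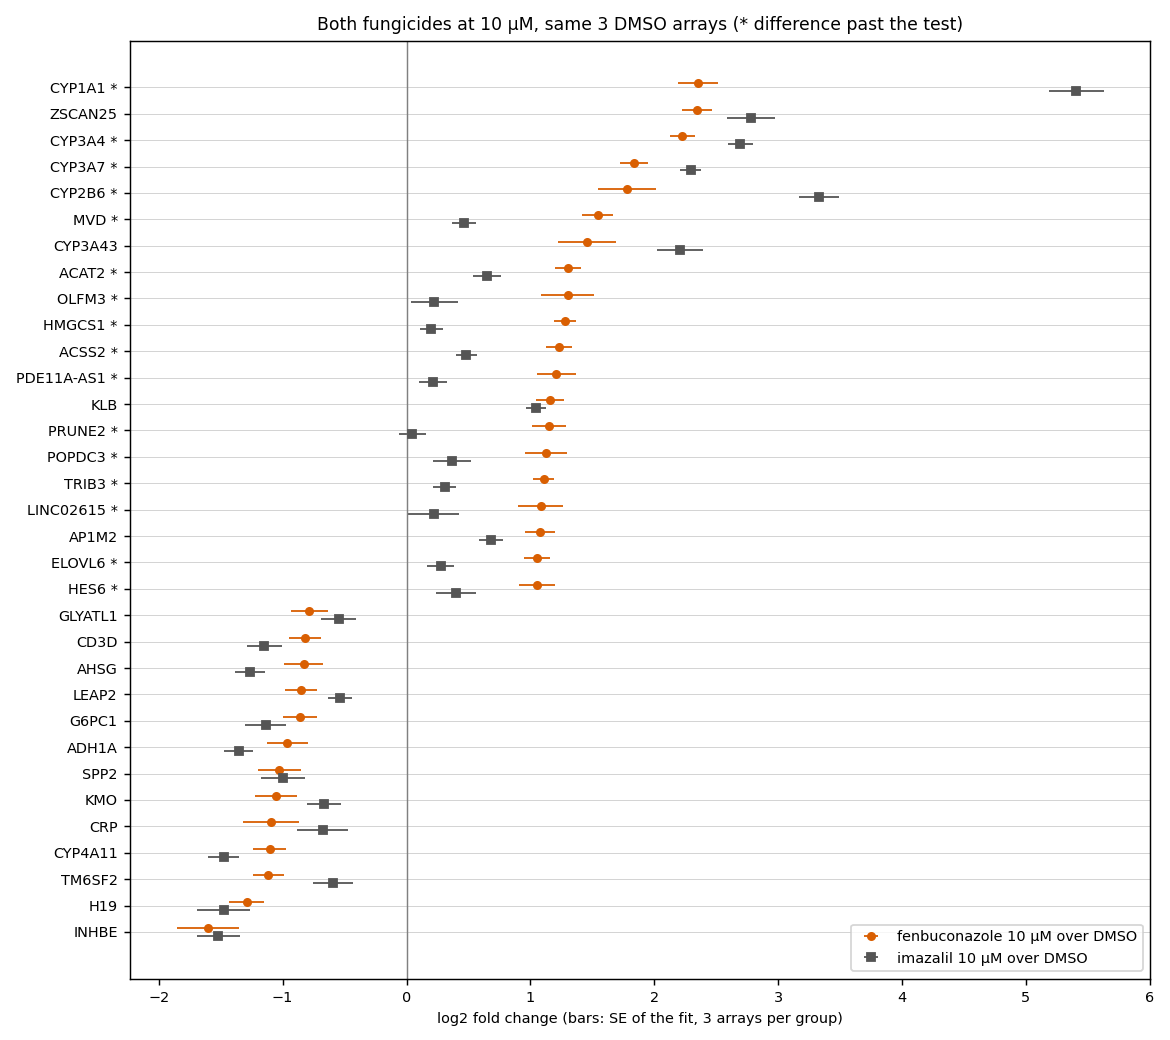
Log2 fold change over DMSO of the genes with the largest changes, for fenbuconazole 10 µM (orange circles, above) and imazalil 10 µM (grey squares, below), with bars for the SE of the fit; an asterisk marks genes whose difference between the chemicals passed the test. CYP1A1 reaches 2.35 with fenbuconazole and 5.41 with imazalil, HMGCS1 and MVD are farther right with fenbuconazole, and the 13 genes below 0 carry no asterisk.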

How the data were processed

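RNA of HepaRG cells was collected after 24 h of exposure and hybridised to HT HG-U133+ PM arrays. The authors deposited log2 values made by RMA on the fenbuconazole arrays together with the common DMSO arrays, RMA and Partek being the tools in the submitters' processing notes (versions not given in the sources used here). Arrays have no counting depth, so their number limits the precision. The values were used as deposited. Group means and the replicate number as a block were fitted to the 30 arrays in R 4.3.3 (limma 3.58.1, with data.table of version 1.17.8 for reading), with moderated tests and Benjamini-Hochberg adjustment over 54613 probe sets at 0.05, and the scripts were tested on simulated data. Plots came from Python 3.11.15 and matplotlib 3.10.9.

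Where several probe sets with only 1 symbol shared a gene, the brightest over the 30 arrays stood for it. Of the probe sets, 40914 carried 1 symbol in the platform annotation, 864 several and 12835 none listed. Named genes are the 12 largest rises and 12 largest falls among called genes with 3 pairs of the same sign, the same outside the P450 and sterol lists, up to 4 called members of each of 39 lists with the smallest adjusted p, and CYP1A1, CYP1A2, CYP2B6, CYP3A4 and CYP51A1. Other list members are given with their values. The members, lists and rule were chosen with earlier results of these data known. Of the list symbols, 65 were not measured and 7 were matched by an older symbol.

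The pairing comes from the separate batches of cells, and in this set the P code in the labels equals the replicate number. Deviations from group means correlated at a mean r of 0.098 within a replicate number and -0.049 between numbers, for 22 of 30 arrays the best correlation was with their own number, and the 10 µM and DMSO arrays of replicates 1, 2 and 3 at 0.11, 0.22 and 0.012. The difference from imazalil used 54 treated arrays, each lowered by the DMSO mean of its set. Alternatives were no block, the 6 arrays alone, other references, scalings, filters and gene summaries, and each replicate left out.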

Additional observations from a re-analysis of the deposited data

How the results depend on the processing

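Against the 87 higher and 43 lower genes, a fit without the replicate block gave 72 and 26, and 98 of the 130 calls were shared. The 6 arrays alone gave 30 and 3, where far fewer samples estimate the spread. The fit to 30 arrays also assumes that a probe set varies equally in all groups. The SD of CYP2B6 was 0.97 in the 10 µM cultures and 0.082 in the DMSO cultures. That of INHBE was 0.81 and 0.33, and that of TRIB3 0.039 and 0.092. With the 6 arrays alone the adjusted p was 0.088 for CYP2B6, 0.0759 for INHBE and 0.176 for CRP. The part of unequal spread in the lost calls was not tested. Leaving out a replicate gave 39 to 50 higher and 5 to 18 lower, and leaving out only the 10 µM array of replicate 2, chosen after seeing the data, gave 63 and 14. With the arrays of 0.001 to 0.03 µM as reference the counts were 164 and 215. A gene taken as the mean of its probe sets gave 115 and 87, and a trend of variance with intensity 109 and 70. For these last 3 the cause was not tested. Centring of arrays on the median (89 and 36), a further quantile normalization (76 and 53), leaving out dim probe sets (111 and 60) and adjusting over 1 probe set per gene (101 and 52) stayed within 1.5 times the reported counts. The 88 genes that differed between the chemicals became 65 without the block and 32 to 43 with a replicate left out. No named gene changed direction in any of these settings. Of the 66 named genes, calls were lost for 7 without the replicate block, 37 with 6 arrays alone and 26, 29 and 20 without replicates 1, 2 and 3. The block changed no other named call.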
